A study of Caenorhabditis elegans with 2 samples.

Results

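The binding sites described here are the PAG-3 ChIP-seq peaks that lay inside introns of protein-coding genes of Caenorhabditis elegans. They were the peaks whose summit lay within a protein-coding gene, outside every coding exon and untranslated region, and outside promoter windows, which reached from 1000 bp before to 200 bp after each protein-coding gene start. This rule was met by 209 of the 910 peaks in the set thresholded on reproducibility between replicates (22.97%, Wilson 95% interval 20.4 to 25.8), and they lay in 174 host genes, 0.991% of the 17560 protein-coding genes with intron sequence that the rule allows. Within this set the rule used position only and did not select on peak height, replicate values or sequence. The thresholding of the set limits heights and replicate values. Leaving out exons and promoter windows limits the introns and distances that can enter.

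PAG-3 was mapped by chromatin immunoprecipitation and sequencing in whole hermaphrodite L1 larvae of the transgenic strain OP154 (unc-119(ed3) III; wgIs154), which stably expressed PAG-3 with a C-terminal GFP-FLAG tag. The larvae had been starved after bleaching and were taken 6 hours after synchronization, and the tagged protein was recovered with an antibody against GFP from chromatin sheared by sonication. The 2 biological replicates formed the 1 group. Both came from the same strain, whole animals were used so that cell types are not separated, and no control sample was analysed here. The peak lists hold no read counts, so read depth was unknown. Each peak has a deposited signal, a measure of its height in the authors' peak calling whose scale is not stated in the sources used here, and this signal was compared between peaks of 1 list only. With 1 group there was no test over samples. Differences between classes of peaks are given with intervals that cover counting error only, were not tested, and concern peaks that are not independent where they are neighbours.

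PAG-3 is a zinc finger transcription factor of the Gfi1 family, known in C. elegans for its roles in touch receptor neurons and in the neuroblasts of the ventral cord. Introns in this compact genome are mostly short. The longer ones, often near the beginning of a gene, can carry enhancers and the start sites of shorter transcripts, so that 1 gene can be read from several places.

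Letters near 8 intronic summits are shown because 4 short words, chosen with earlier results of these data known, recurred among the 209 summits. The words searched were the GA repeat GAGAGA, the word ATGGCA, the word GACGCA and the palindrome CACGTG, each counted on both strands within 50 bp of the summit. Different words can overlap by at most 2 letters at their ends. Capitals mark the word, and each stretch of 30 bases is from the RefSeq genome of assembly WBcel235 (ce11), 5′ to 3′ on the strand named.
peb-1, chrX:2215304-2215333, plus strand: ttatcagttcaaATGGCAcgcgcctctctc
F46H5.3, chrX:7236984-7237013, minus strand: gagcaggaacagATGGCAttcgacggcaat
rpc-2, chrIII:5563852-5563881, plus strand: gcattggcagaaGAGAGAacagaagaagga
unc-22, chrIV:12010613-12010642, plus strand: tcggaagaacgaGACGCAgacgcgcagata
atn-1, chrV:12479212-12479241, plus strand: acaaaaaaccgcGAGAGAtaaggataacag
hlh-30, chrIV:4020030-4020059, plus strand: gacgcctacaacGAGAGAcccctttctctg
mlc-3, chrIII:5565879-5565908, minus strand: tgtgtgtgccaaGAGAGAttctcgagagtc
T28B11.1, chrV:10715940-10715969, plus strand: tcgtctcgcgcgCACGTGaccggagggaag
These are the highest intronic peaks of their hosts, chosen because a word lies near the summit. The high peaks of mup-4, fbxl-4 and C15A11.2 had none of the 4 words within 50 bp. At peb-1, the same window of 101 bases also held GAGAGA.

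The highest peak of the whole set was intronic. It lay in the first of 6 introns of peb-1, whose DNA-binding product is active in the pharynx, 4272 bp downstream of the gene start in an intron of 4534 bp. Its signal was 1165 in replicate 1, 339 in replicate 2 and 1509 in the list made from both replicates together (the joint signal), and it ranked 1 in each of the 3 lists. A shorter transcript of peb-1 begins 307 bp downstream of the summit, and the annotated non-coding genes T14F9.16 and T14F9.20 overlie it. A second, much lower peak lay in intron 4 of peb-1, with signals of 56.0 in replicate 1, 26.9 in replicate 2 and 59.7 jointly.

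Of the next 14 intronic peaks, 6 were in genes of the muscle or epidermal attachment lists, namely unc-89 (2 peaks), mup-4, unc-54, unc-22 and atn-1. Of all 209 intronic peaks, the muscle lists held 23 and the epidermal list 1. These lists were chosen with earlier results of these data known, so the count is no independent evidence. F46H5.3, an arginine kinase gene, had a summit 1663 bp into the gene in a first intron of 6139 bp, with signals of 486 in replicate 1, 180 in replicate 2 and 661 jointly. At mup-4, which encodes a transmembrane protein of the fibrous organelles that anchor epidermis over muscle, the first intron is 790 bp long, and the peak 631 bp downstream of the start had 379 in replicate 1, 167 in replicate 2 and 540 jointly. The highest peak of unc-89, the obscurin gene of muscle sarcomeres, sat far from the start instead, 15003 bp downstream in intron 15 of 47, with 404 in replicate 1, 129 in replicate 2 and 532 jointly. Intron 3 of unc-54, the gene of the main body wall myosin heavy chain, carried a peak of 310 in replicate 1, 79.0 in replicate 2 and 391 jointly, 1191 bp from the start.

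The other hosts among the 15 highest intronic peaks were fbxl-4, C15A11.2, rpc-2, unc-22, tres-1, unc-83, lin-14, anmt-2, atn-1 and unc-89 again, with joint signals from 166 to 339. At unc-22, the gene of the giant kinase twitchin, the summit lay 386 bp from the start with 176 in replicate 1, 68.3 in replicate 2 and 245 jointly. The lin-14 peak, in the first intron of this regulator of larval timing, had 157 in replicate 1, 45.1 in replicate 2 and 213 jointly. At atn-1, which encodes alpha-actinin, a summit in intron 1 had 132 in replicate 1, 41.2 in replicate 2 and 176 jointly. At unc-83, which encodes a nuclear envelope protein of nuclear migration, intron 2 held a peak of 157 in replicate 1, 70.3 in replicate 2 and 228 jointly. All of these 15 peaks were matched in both replicates, and in each the signal of replicate 1 was the larger number. That difference cannot be read as binding, because the scale of each list is not stated.

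A host gene is the gene around a summit and need not be the nearest one. The host's own start was the nearest protein-coding start for 158 of the 209 summits (75.6%, 69.3 to 80.9). For the other 51, another gene's start was nearer, and 28 of these summits lay upstream of that start, 5 of them by no more than 2000 bp. The peak in the last of 8 introns of rpc-2, a gene of a subunit of RNA polymerase III, was such a case: its summit was 6504 bp downstream of the start of rpc-2 and 1156 bp upstream of that of mlc-3, a myosin light chain gene that carries an intronic peak of its own. Median joint signal was 57.3 where another gene's start was nearer and 58.0 where the host's was. In 4 cases 2 genes overlapped at the summit (ocrl-1 and eat-16, R13H4.2 and nphp-4, ndx-8 and soem-1, and K09E2.3 and K09E2.2), and 1 summit, at dhs-17, lay in no intron of any single transcript.

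Intronic peaks had nearly the same typical height as the rest of the set. Their median joint signal was 58.0 (interquartile range 49.5 to 70.6, range 43.4 to 1509), against 58.8 (48.5 to 82.0) for the other 701 peaks, a log2 difference of -0.02. The 408 promoter peaks had a median of 57.3, and the 266 peaks outside genes and windows one of 61.9. The tenth of the set with the highest signal, 91 peaks, held 21 intronic peaks (10.05% of them) and 70 of the others (9.99%). Among the higher-signal 50% of the set the log2 difference of the medians was -0.20, although the 2 highest peaks of the set, at 1509 and 661, were intronic and the highest of the others had 619.

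**Figure D1:**
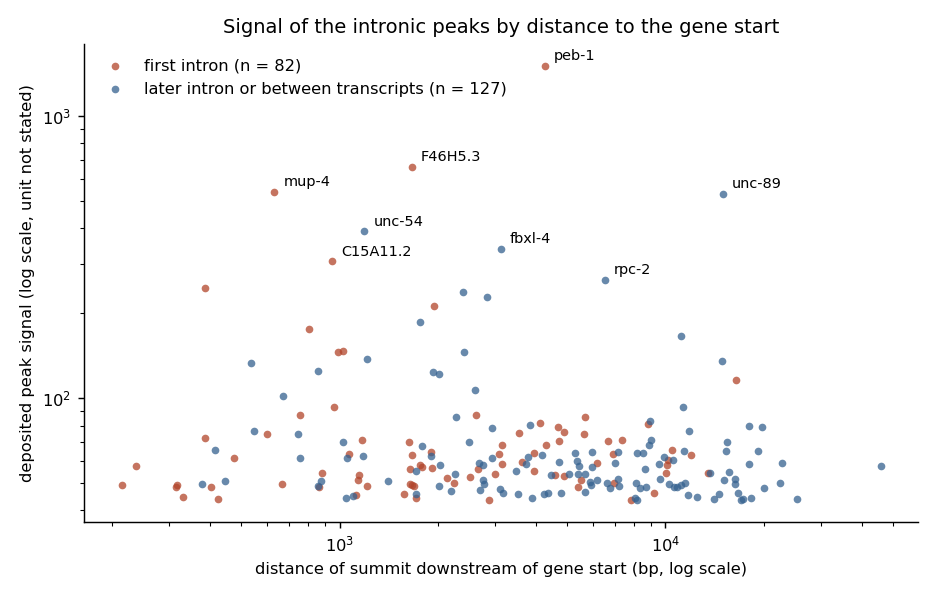
Joint signal of each of the 209 intronic peaks (vertical, log scale, unit not stated) by the distance of its summit downstream of the host gene's start (horizontal, bp, log scale), in red for first introns and blue for later introns. The 8 highest peaks are named, peaks near the lower limit of 43.4 occur at all distances, and the most distant summit is 45715 bp from the start of unc-89.

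Signal was nearly unrelated to where in the gene a summit lay. Across the 209 peaks, which share the same libraries, joint signal and distance to the start had a Spearman rho of -0.13, and joint signal and intron length one of -0.11 over 208 peaks. Median signal was 61.6 for the 31 peaks from 201 to 1000 bp of the start and 54.5 for the 43 peaks more than 10000 bp away. The peaks of 532 in unc-89 and 263 in rpc-2 were high although 15003 and 6504 bp from their host's start.

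Relative to the sequence in which a summit could count as intronic, the peaks were not more frequent than those in sequence outside genes. The rule allowed 30.6 Mb of intron sequence, which held 6.83 peaks per Mb. Promoter windows held 18.96 peaks per Mb, sequence outside genes and windows 10.6, and coding exons 0.498. Of the 502 summits outside promoter windows, 41.6% were intronic (37.4 to 45.99), and introns made up 38.9% of those bases. Down the joint list of 30000 regions, which includes background, the intronic share of all regions was 25.6% at ranks 911 to 5000, 30.03% at ranks 5001 to 15000 and 31.9% at ranks 15001 to 30000. Of the regions outside promoter windows alone, introns held 41.3% at ranks 911 to 5000, 41.0% at ranks 5001 to 15000 and 41.8% at ranks 15001 to 30000.

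Peaks were denser in longer introns, but many lay in shorter ones. Median joint signal was 61.4 for the 54 peaks in introns of 500 to 1999 bp and 52.3 in introns of 10000 bp or more. The intron that held a summit had a median length of 3820 bp (interquartile range 1352 to 7773), while the median allowed base lay in an intron of 977 bp. Peak density was 1.91 per Mb in introns under 500 bp (16 peaks), 4.15 in those of 500 to 1999 bp, 11.6 from 2000 to 4999 bp, 18.7 from 5000 to 9999 bp and 21.2 (exact Poisson 95% interval 14.3 to 30.2) in introns of 10000 bp or more, where 30 peaks lay. The densities in introns of 5000 bp or more were close to the 18.96 per Mb of promoter windows. The longest intron with a summit was intron 4 of kin-1, the gene of the catalytic subunit of cAMP-dependent protein kinase, at 21230 bp.

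First introns held more peaks than their share of sequence, but intron length moved with that difference. In the host's transcript with the longest coding sequence, 82 of the 209 summits were in intron 1 (39.2%, 32.9 to 45.99), 39 in intron 2 and 87 in a later one, while first introns made up 23.2% of allowed bases. Counted over any transcript of the host, 121 summits were in a first intron (57.9%). In introns under 2000 bp the density was 5.45 peaks per Mb in first introns (3.33 to 8.42) and 2.82 in later ones (2.09 to 3.72), and from 2000 to 4999 bp it was 16.3 in first introns (10.6 to 23.8) and 9.36 in later ones (6.36 to 13.3). In introns of 5000 bp or more the densities were 19.5 in first introns (13.7 to 27.0) and 19.6 in later ones (14.3 to 26.2), so in long introns first and later positions were alike within counting error.

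**Figure D2:**
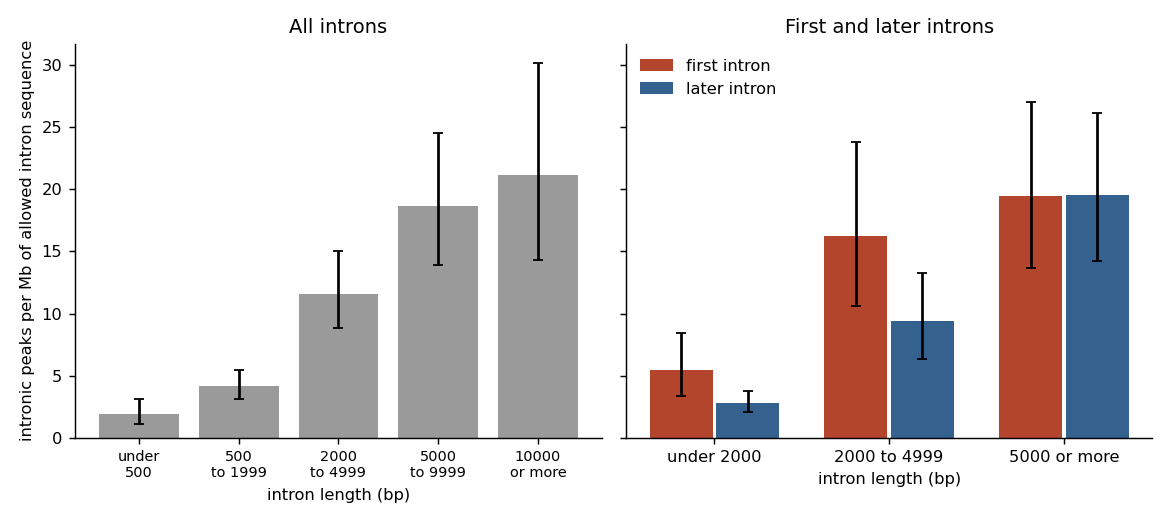
Intronic peaks per Mb of intron sequence that the rule allows, by intron length, for all introns (left) and for first introns beside later introns (right). Bars are densities and error bars exact Poisson 95% intervals; density rises from 1.91 per Mb in introns under 500 bp to 21.2 in those of 10000 bp or more, and first and later introns of 5000 bp or more have 19.5 and 19.6.

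The median distance to the host's start was 3907 bp (range 215 to 45715), against 2656 bp for the allowed bases, and density went up with distance, at 4.73 peaks per Mb from 201 to 1000 bp and 11.0 beyond 10000 bp. The median distance to the nearer splice site was 829 bp, and 6 of 208 summits were within 50 bp of one. The same distance was not computed for all allowed bases, so these values describe the summits only. Within their introns 95 of 208 summits (45.7%, 39.0 to 52.5) were nearer to the 5′ splice site.

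The limits of the rule cut through a continuous range of positions and heights. Nearest to the distance limit of 200 bp, the peak of cah-4 lay 215 bp and that of C18D11.1 lay 237 bp from the start, inside the rule, while summits in introns of pyk-1 at 189 bp and hxk-3 at 152 bp counted as promoter peaks. A further 21 summits lay in an intron of 1 gene but in the promoter window of another and were not counted. The lowest members by signal were pqn-72 at 43.7 and 2 peaks of hlh-30 at 43.5 and 43.4, and the next intronic regions of the joint list, at tpa-1, ifbp-1 and psd-1, had 43.39, 43.37 and 43.2.

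Internal starts of shorter transcripts were near many intronic summits. Windows of the same size around annotated internal starts held 53 of the 209 summits (25.4%, 19.9 to 31.7), and such windows covered 10.9% of allowed bases. Density was 15.9 peaks per Mb inside these windows and 5.72 outside them. Inside the windows it was 9.37 in introns under 2000 bp, 27.3 from 2000 to 4999 bp and 21.1 in introns of 5000 bp or more, against 2.67, 8.53 and 19.3 outside the windows in the same length classes. Examples upstream of such a start were the peaks of sir-2.2, a sirtuin gene (198 bp upstream), of act-3, one of several near-identical actin genes (273 bp), of sca-1, the gene of the calcium pump of the sarcoplasmic reticulum (406 bp), of atn-1 (613 bp) and of the peak at 11301 bp in unc-22 (36 bp). Median signal was 58.1 for peaks in internal start windows and 57.2 for the other intronic peaks.

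An annotated non-coding gene overlay 20 of the 209 summits (9.57%, 6.28 to 14.3), and such genes covered 1.86% of allowed bases. Genes annotated as piRNA were left out of the count of summits. At 17 of these summits a gene annotated as ncRNA was present, such as F46H5.9 at the F46H5.3 summit and ZK617.23 at that of unc-22.

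Host genes had much more intron than other genes. The median host had 7360 bp of allowed intron sequence, and the median of all 17560 protein-coding genes with any had 749 bp. The 20 hosts with more than 1 intronic peak had a median of 15626 bp. The share of 0.991% of those 17560 genes is the background for the counts of hosts in gene lists.

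The clearest group was muscle. Across 6 lists of muscle genes, 18 of 123 genes with allowed intron sequence were hosts (14.6%, 9.46 to 21.9), with 23 peaks at 37.2 per Mb, against 6.20 per Mb for the other 186 peaks. The muscle peaks had a median joint signal of 87.5 and the other 186 a median of 56.2, and muscle genes held 12 of the 30 highest intronic peaks. Several muscle lists also had more intron than usual, with a median of 14875 bp of allowed sequence per gene for giant proteins, 3759 bp for calcium and excitability, 3661 bp for dense bodies and 1401 bp for thick filaments, against 749 bp over all genes. The lists were chosen with earlier results on muscle genes in these data known, so they are no independent evidence of that excess.

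Thick filament genes had 4 hosts of 13, with a median signal of 124. After unc-54 came mlc-3, with 87.2 in replicate 1, 32.7 in replicate 2 and 125 jointly, then unc-15, the gene of paramyosin, with 98.6 in replicate 1, 29.8 in replicate 2 and 122 jointly, and then myo-3, a minor body wall myosin heavy chain, with 74.2 in replicate 1, 16.1 in replicate 2 and 87.5 jointly. The order of mlc-3 and unc-15 thus differed between replicate 1 and the joint list. Of the 5 giant protein genes, unc-89 and unc-22 were hosts, with 3 peaks each.

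Thin filament genes had 2 hosts of 28. These were act-3 (joint signal 92.99) and lev-11, the tropomyosin gene, whose intron 3 peak had 57.9 in replicate 1, 17.7 in replicate 2 and 78.2 jointly. Genes of dense bodies and muscle attachment, which tie the filaments to the membrane and the matrix, had 6 hosts of 35. Below atn-1 these were unc-112, the kindlin gene (45.0 in replicate 1, 33.5 in replicate 2 and 74.7 jointly), uig-1 (63.3 jointly), the type IV collagen gene let-2 (62.4), dim-1 (54.0) and the perlecan gene unc-52 (43.8). dim-1 had no match in replicate 2.

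Genes of muscle calcium and excitability had 3 hosts of 29, namely sca-1 with 94.3 in replicate 1, 35.8 in replicate 2 and 134 jointly, the GABA receptor gene unc-49 with 53.8 jointly and the calcium channel gene egl-19 with 50.7 jointly. Among 13 muscle regulators, peb-1 was a host, and among 28 epidermal fibrous organelle genes mup-4 was. The peaks of unc-49 and egl-19 were thus below the intronic median of 58.0.

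In the list of insulin, TOR and starvation response genes, 3 of 33 were hosts (9.09%), against 0.991% of all genes. They held 11 peaks at 56.6 per Mb with a median signal of 54.9. Most of these peaks were in 1 gene, hlh-30, the TFEB gene of autophagy and the fasting response, with 8. The FOXO gene daf-16 had 2 (65.0 and 45.7 jointly). The cGMP-dependent kinase gene egl-4 had 1 (54.5), without a match in replicate 2. Genes of this list had a median of 2753 bp of allowed intron sequence, above the median over all genes. Heterochronic genes, which time larval development, had 2 hosts of 20, lin-14 and the nuclear receptor gene daf-12 (38.8 in replicate 1, 11.6 in replicate 2 and 56.2 jointly). The highest peaks of these 2 lists, at lin-14 (213 jointly) and hlh-30 (135), were below the highest peaks of peb-1, unc-89, unc-54 and unc-22.

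Neuronal lists had 0 or 1 host each, too few to set them apart from the 0.991% of all genes. The shares were 1.6% for homeobox and neuron identity genes, 2.6% for synaptic and pan-neuronal genes and 3.1% for axon guidance genes. None of 15 touch receptor neuron genes was a host, and so short a list cannot show a lack of hosts. Of 62 homeobox and neuron identity genes 1 was, egl-27 at 44.3 jointly, and of 38 synaptic and pan-neuronal genes 1, the ankyrin gene unc-44 at 50.2. Of 32 axon guidance genes 1 was, the lamellipodin gene mig-10, with peaks of 58.6 and 48.5. In replicate 2 the unc-44 peak had only 6.89, at rank 23046, and the lower mig-10 peak 6.44, at rank 26560. Cell cycle genes had 1 host of 28, the cyclin E gene cye-1 at 48.9, and genes of Wnt, Notch, Ras and TGF-beta signalling had 2 of 46, the MAP kinase gene mpk-1 at 68.3 and sma-9 at 63.3 and 56.4. Nuclear hormone receptor genes had 4 hosts of 264, nhr-31 (63.6), nhr-40 (49.7), nhr-85 (48.6) and nhr-41 (47.1). The peaks of nhr-40 and nhr-41 had no match in replicate 2, and that of cye-1 had 7.17 there, at rank 21051. Ribosomal protein, cuticle collagen and neuropeptide genes had 0 hosts of 39, 131 and 120, and their median allowed intron sequence was 55, 107 and 384 bp per gene, so little sequence was open to a count there.

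The peaks of hlh-30 were spread over 13134 bp. The 8 summits were 277 to 4331 bp apart, and the regions of the closest 2 overlapped. Intron 1 (7694 bp) held 2 of the summits and intron 2 (8295 bp) held 5, with 9 internal transcript starts annotated in the gene. The highest, 14885 bp from the start, had 80.3 in replicate 1, 50.3 in replicate 2 and 135 jointly, and the other 7 had joint signals from 43.4 to 63.8. The replicates differed here: 6 of the 8 were matched in replicate 1, 7 in replicate 2 and 5 in both. The peak at 8172 bp had 36.9 in replicate 2, rank 89 of that list, and no match in replicate 1, and that at 15687 bp had 12.4 in replicate 1, rank 9044, and no match in replicate 2.

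**Figure D3:**
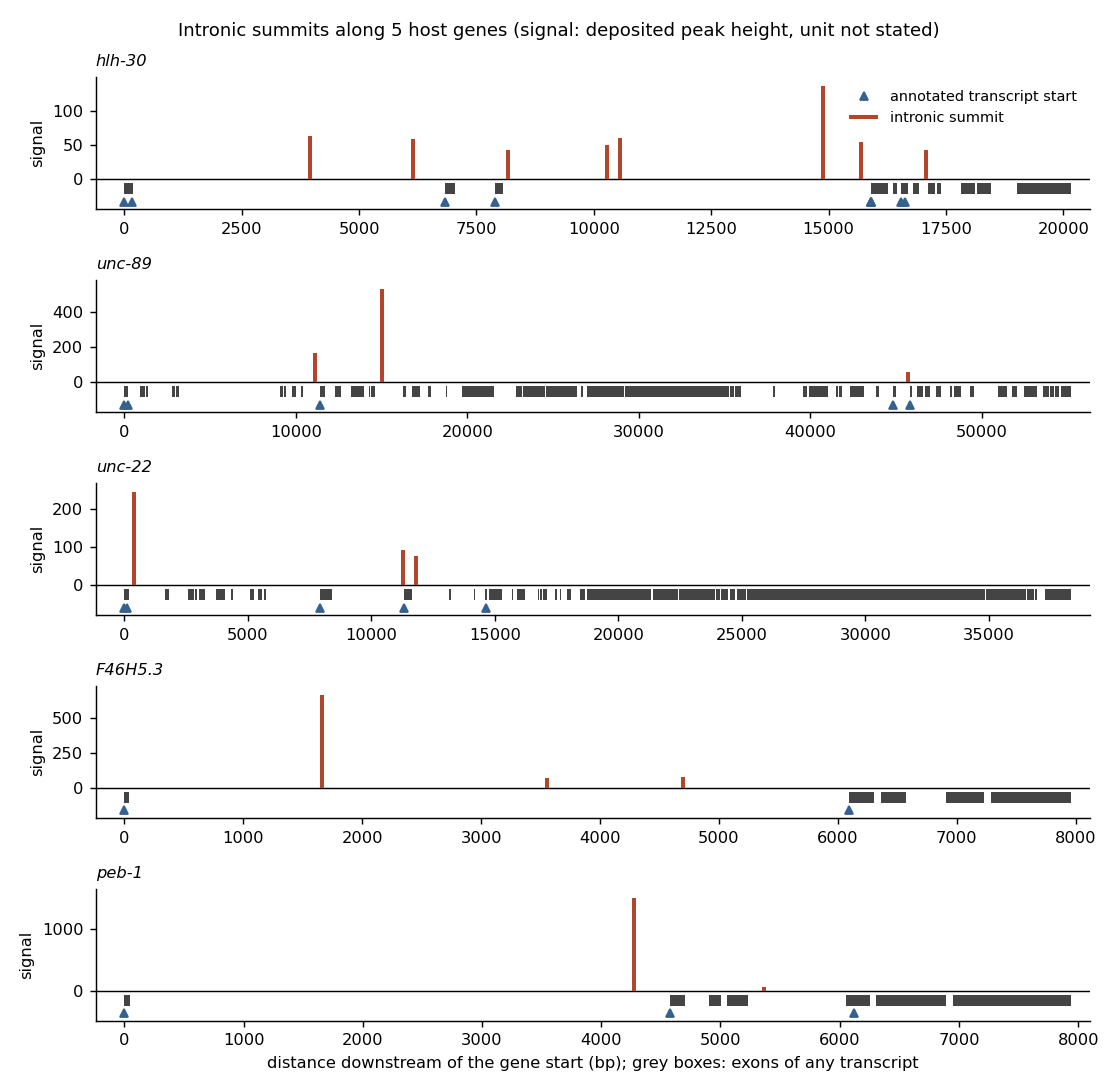
Intronic summits (red lines, height is the joint signal, unit not stated) along hlh-30, unc-89, unc-22, F46H5.3 and peb-1, by distance downstream of the gene start in bp, with exons of any transcript as grey boxes and annotated transcript starts as blue triangles. The 8 peaks of hlh-30 are spread over 13134 bp and the highest is 135, whereas peb-1 has 1 peak of 1509 and 1 of 59.7.

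Other genes with 3 or more intronic peaks were ppfr-1 with 4, and F46H5.3, unc-89, unc-22, kin-1, daf-5, ccch-1 and dyc-1 with 3 each. The closest ppfr-1 summits were 200 bp apart, and their regions overlapped. In F46H5.3, unc-89 and unc-22 1 high peak stood beside lower ones: joint signals were 661, 79.4 and 75.5 in F46H5.3, 532, 166 and 57.3 in unc-89, and 245, 92.9 and 76.3 in unc-22. In the others no peak exceeded 80.2. ppfr-1, related to a regulatory subunit of protein phosphatase 4, ran from 43.8 to 64.0, kin-1 from 48.4 to 80.2, daf-5, a Ski-like regulator of dauer entry, from 43.7 to 70.0 along 1 intron of 14446 bp, the zinc finger gene ccch-1 from 47.8 to 64.1, and dyc-1, a partner of dystrophin in muscle, from 46.03 to 57.5. In all, 154 hosts had 1 peak, 11 had 2 and 9, with hlh-30, had 3 or more, and 14 of the 187 introns with a summit had several.

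Hosts more often had a promoter peak of their own than other genes did. It was present for 15 of the 174 hosts (8.62%, 5.29 to 13.7) and for 433 of the 17386 other genes with allowed intron sequence (2.49%, 2.27 to 2.73). Among the 15 were unc-54, unc-89, unc-15, mlc-3, lev-11, sca-1, unc-112 and mup-4, all in the muscle or epidermal attachment lists. Those lists were chosen with earlier results known, and the share among hosts outside them was not computed. The intronic peak was the higher in 8 of the 15 and the promoter peak in 7. At unc-89 the joint signal was 532 in the intron and 50.7 at the promoter, at mup-4 540 and 137, at lin-14 213 and 53.8, and at mlc-3 125 and 62.1, with the intronic value first. The reverse order held at unc-112, with 74.7 in the intron and 377 at the promoter, at unc-15 with 122 and 277, and at lev-11 with 78.2 and 109. At unc-54 the values were 391 in the intron and 298 at the promoter, and at sca-1 134 and 107.

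The replicates shared most intronic peaks. A summit within 100 bp was listed among the 30000 regions of replicate 1 for 203 of the 209 peaks and among those of replicate 2 for 169. Both replicates had one for 164 (78.5%, 72.4 to 83.5), against 83.7% (80.8 to 86.3) of the other thresholded peaks. The 1 peak with neither, at R02D5.9, had its nearest summits 130 bp away in replicate 1 and 116 bp away in replicate 2. In the 910 highest regions of each replicate, 72 intronic peaks had a match in both (34.4%, 28.3 to 41.1), against 40.7% (37.1 to 44.3) of the other thresholded peaks. In those of replicate 2 alone, 46.4% of intronic peaks (39.8 to 53.2) and 54.5% of the others (50.8 to 58.1) had a match. In those of replicate 1 alone, both shares were 78.0%.

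The highest intronic peaks ranked high in both replicates. Over the 164 peaks matched in both replicates, signals of replicate 1 and replicate 2 had a Spearman rho of 0.33, and their log2 values a Pearson r of 0.67. In the higher-signal 50% of the set, 87 of 100 intronic peaks were matched in both and rho was 0.49. In the lower 50%, 77 of 109 were matched and rho was -0.61. The set is cut on the joint signal, so this negative value describes the peaks kept, and agreement of the replicates cannot be read from it. A large discordance was that of F55A11.6, with 99.4 in replicate 1 but 6.29 in replicate 2, at rank 27767 of that list, and 138 jointly.

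**Figure D4:**
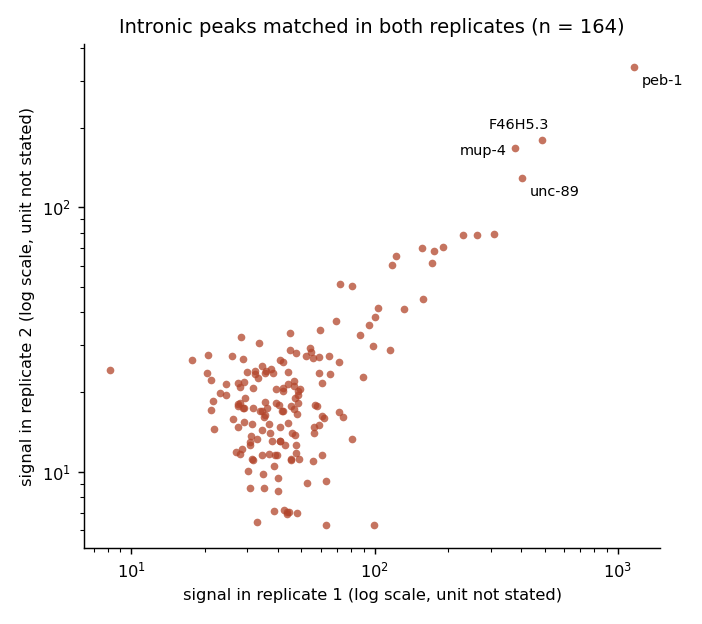
Signal in replicate 1 (horizontal) and replicate 2 (vertical), both on log scales with unit not stated, of the 164 intronic peaks matched within 100 bp in both replicates. The highest 4 peaks by joint signal are named and rank high in both replicates. Peaks enter by their joint signal, so the order within the cloud of low peaks does not measure agreement of the replicates.

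The GA repeat word GAGAGA was the most frequent of the words at intronic summits. It lay within 50 bp of 71 of the 209 summits (33.97%, 27.9 to 40.6), in 9.81% of windows of the same 101 bases centred 300 bp to each side, and in 4.25% of 302990 windows of that length over the allowed intron sequence. At the other 701 peaks it was present at 27.2% of summits and in 6.42% of flanks. ATGGCA was at 11.96% of intronic summits (8.24 to 17.1) and in 3.59% of their flanks, GACGCA at 9.57% and in 2.39%, and CACGTG at 6.70% and in 0.957%. At least 1 of the 4 words was near 108 intronic summits (51.7%), and 2 or more were near 20. The words were chosen with earlier results of these data known, so these shares are no independent evidence of an excess at summits.

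AATCAC, the core of the site that mammalian Gfi1 proteins bind, was at 7.18% of intronic summits (4.397 to 11.5), in 5.50% of their flanks and in 5.12% of allowed windows. These shares overlapped within counting error. Other words searched were the E-boxes CAGCTG, at 4.79% of summits and 1.68% of flanks, and CACCTG, at 5.26% of summits and 1.91% of flanks. A match is a run of letters and not a shown binding site, and its absence from the window says nothing of the factor.

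GAGAGA shares differed between classes of intron and of replicate match, but their intervals overlapped and the differences were not tested. The word was near 51 of 126 summits in later introns (40.5%, 32.3 to 49.2). In first introns it was near 19 of 82 (23.2%, 15.4 to 33.4). The flanks held it about equally (9.92% and 9.76%, later introns first). GAGAGA was near 52 of 164 peaks matched in both replicates (31.7%, upper limit 39.2). It was near 19 of 39 matched in replicate 1 only (48.7%, lower limit 33.9). It was near 0 of the 5 matched in replicate 2 only (upper limit 43.4%). With the 910 highest regions of replicate 2 alone, that is without replicate 1, the intronic share was 21.6%, and with those of replicate 1 alone it was 34.7%. The share was thus lower in replicate 2, a difference that was not tested.

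Summits were also richer in G and C than the sequence beside them. Over 101 bases GC content was 43.3% ± 7.63 (SD over 209 peaks) at intronic summits and 36.1% ± 9.05 (SD) in their flanks, and 32.1% of all allowed bases. At the other peaks it was 44.0% at summits and 34.2% in flanks. Bases that the reference marks as repeats made up 20.001% of the intronic summit windows and 31.99% of their flanks. Word counts were not adjusted for base composition, and its part in them was not tested.

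These features faded down the joint list. Among intronic regions the median intron length was 3820 bp for the 209 thresholded peaks, 1816 bp for the 1049 at ranks 911 to 5000, 985 bp for the 3003 at ranks 5001 to 15000 and 933 bp for the 4783 at ranks 15001 to 30000, the last close to the 977 bp of the median allowed base. The share in first introns was 39.2%, 35.7%, 28.3% and 25.3% in the same order of ranks, that in internal start windows 25.4%, 23.1%, 14.5% and 12.5%, and that with GAGAGA 33.97%, 14.01%, 5.76% and 4.54%. AATCAC changed little, at 7.18%, 6.29%, 5.23% and 5.16%. GC content at the summit was 43.3%, 36.1%, 32.6% and 32.2%. GAGAGA was chosen with earlier results of these data known, so its fall with rank is no independent evidence of an excess at high peaks.

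**Figure D5:**
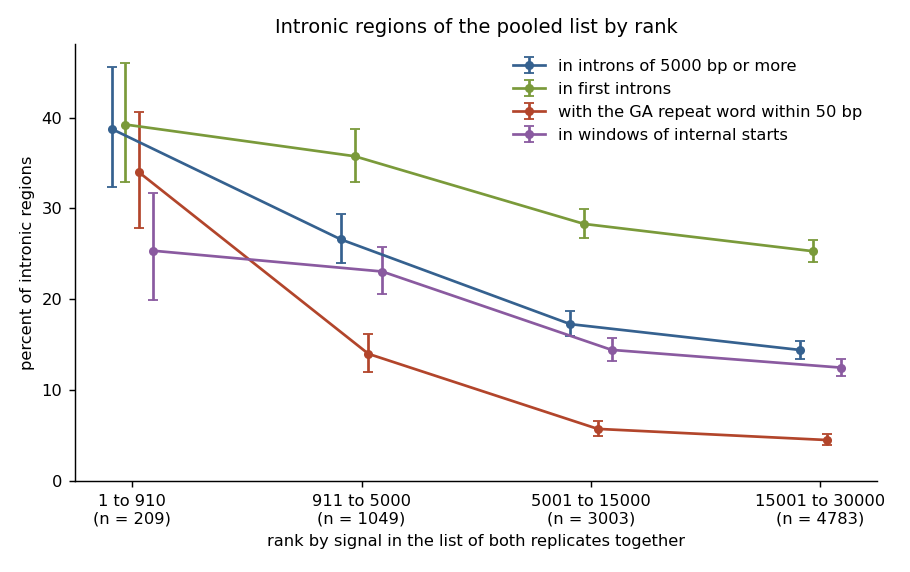
Percent of intronic regions of the joint list that lie in introns of 5000 bp or more, in first introns, in windows of internal starts, or have the GA repeat word within 50 bp of the summit, by rank from the highest signal at the left. Error bars are Wilson 95% intervals; all 4 shares are highest in the 209 thresholded peaks and lowest at ranks 15001 to 30000.

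Intronic peaks were unevenly spread over the chromosomes. Density in allowed intron sequence was 9.55 peaks per Mb on X (7.06 to 12.6), 7.31 on V, 7.23 on I, 6.60 on IV, 5.74 on III and 3.95 on II (2.30 to 6.33). The X chromosome, where peb-1, F46H5.3, fbxl-4 and lin-14 lie, thus held 49 intronic peaks, and II held 17 with a median joint signal of 55.3. The intervals of neighbours in this order overlapped.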

How the data were processed

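PAG-3 ChIP-seq of 2 biological replicates was analysed, grouped by the labels. The authors deposited, for each replicate and for both together, 30000 ranked regions on ce11 (peaks and background as input for IDR, per the file headers and descriptions, from alignments and 1 control file) and the set thresholded by IDR. The deposited signal of each region and its summit offset were used as given. The sources used here give no aligner, peak caller or read depth. The ce10 versions were not used. Ensembl release 115 gave gene models and RefSeq the sequence, both on WBcel235.

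Summits were placed in this order: promoter window, coding exon, untranslated region, intron. The host was the gene with a transcript intron at the summit, and intron number came from its transcript of longest coding sequence. Replicate summits matched within 100 bp. Intervals are Wilson or exact Poisson (95%) and cover counting error only. Correlations are across peaks, which share libraries and are not replicates. Members, words and gene lists were chosen with earlier results of these data known.

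The text names hosts of the 15 highest intronic peaks, hosts with 3 or more peaks, hosts in the lists, and those with the longest intron and greatest distance. Names beyond these, and the comparison with the nearest start of any gene, were chosen with values in view. Results were recomputed for each replicate alone, the higher-signal 50%, and other windows, matches and transcripts. Placement was checked on simulated data. Python 3.11.15, numpy 2.4.6, pandas 2.3.3, scipy 1.17.1 and matplotlib 3.10.9 were used.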

Additional observations from a re-analysis of the deposited data

How the results depend on the processing

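Of 49 results under an alternative setting, 36 stayed within counting error of the reported value (for counts of genes, within 1.5 times) and 13 moved. Only the log2 median difference could change direction, as the rest were shares or counts, and it stayed negative. The limits of its reported value, -0.111 to 0.035, include both signs, so its direction is not settled. The share matched in both replicates was 59.8% with summits within 50 bp, 88.5% within 200 bp, 84.2% by reciprocal overlap of 50%, 34.4% among the highest regions of each replicate only and 87.0% in the higher-signal 50% of peaks. That 50% held 86 host genes and had a log2 median difference of -0.20. First introns of any transcript took 57.9%, internal starts with 500 bp upstream 18.2%, and hosts with a promoter peak within 2000 bp 15.1%. Within 100 bp GAGAGA was at 52.6% and ATGGCA at 22.5% of summits, as a window of more bases must give. Taking each replicate's 910 highest regions alone, GAGAGA ranged from 21.6 to 34.7%, ATGGCA from 8.33 to 12.2%, the intronic share from 22.4 to 23.4%, host genes from 171 to 179, first introns from 36.8 to 37.6%, internal start windows from 24.0 to 27.2%, hosts with a promoter peak from 7.02 to 10.6% and the log2 difference from -0.05 to -0.03. For the other moves the cause was not tested. No paired analysis was possible because the 2 replicates form 1 group. Unknown read depth leaves the precision of each signal unknown.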
